A study of Homo sapiens with 18 samples.

Results

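The comparison described here is a 1-hour exposure of human cerebral organoids from the H9 line to dopamine, set against vehicle. It rests on 6 of the 18 RNA-seq libraries of the series, chosen by their labels. Libraries 13, 14 and 15 are H9 organoids given acute dopamine, and libraries 16, 17 and 18 are the H9 controls. H9 is an established human embryonic stem cell line, and the organoids, 3-dimensional neural cultures, were patterned towards ventral forebrain with sonic hedgehog and the agonist purmorphamine. At day 83 the acute group received 1 µM dopamine in 100 µM ascorbic acid for 1 hour, after a week of ascorbic acid alone. The control group received 100 µM ascorbic acid throughout, so that the antioxidant was present on both sides. The H9 chronic group (libraries 10, 11 and 12), given 1 µM dopamine daily for a week and for a final 1 hour, shares these controls and is shown beside them where it bears on a gene. The H1 groups, from another embryonic stem cell line, received the same treatments. Whether libraries of the same group are separate cultures is not given in the labels, and the p-values therefore describe spread among libraries that may be partly technical.

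Dopamine acts on a neuron through 2 receptor classes. D1-like receptors raise cyclic AMP, which drives CREB and, within minutes to an hour, immediate early genes such as FOS. D2-like receptors lower it. Dopamine also oxidises to reactive quinones, and the antioxidant programme that answers such molecules is run by the transcription factor NRF2. An hour is therefore the window in which immediate early transcripts are usually sampled, while changes in cell identity are usually followed over days.

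The 6 libraries held 14858983 to 19291741 counts each, and values below are CPM (counts scaled to a common library size, with TMM factors) unless named otherwise. They carried the neuronal transcripts of the label. STMN2, a growth-cone protein gene, stood at 2820, 2610 and 2570 CPM in acute libraries and 2910, 2780 and 2870 CPM in control libraries. NKX2-1, a ventral forebrain and hypothalamic regulator, stood at 55.9, 35.3 and 34.2 CPM in acute libraries and 48.3, 61.5 and 48.3 CPM in control libraries.

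The libraries also differed in ways that the treatment labels do not give. Summed counts of 5 blood genes (HBA1, HBA2, HBB, S100A8 and S100A9) were 695, 3 and 0 in acute libraries 13, 14 and 15, against 6, 876 and 2674 in control libraries 16, 17 and 18. The blood transcripts therefore fell on 1 acute and 2 control libraries, and differences were recomputed inside each side of that split, as library 13 against 17 and 18 and as libraries 14 and 15 against 16. Mesenchyme and pericyte markers summed to 2251, 3281 and 1432 counts in acute libraries and 1500, 5748 and 5723 counts in control libraries. The microglial list summed to 120, 62 and 46 counts against 68, 291 and 310. Among its genes AIF1 had 10, 0 and 1 counts in acute libraries and 1, 22 and 24 counts in controls, CSF1R had 10, 0 and 1 against 1, 23 and 17, and CX3CR1 had 2, 4 and 9 against 8, 13 and 16. The microglial genes C1QA and P2RY12 had at most 2 counts in any library. Acute library 15 stood apart through the homeobox genes of the HOX clusters, which mark hindbrain, spinal cord and trunk. The 39 HOX genes summed to 459, 326 and 3767 counts in the acute libraries and 243, 195 and 259 counts in the control libraries. The part that these features play in the results below was not tested beyond the values with and without the libraries concerned, and in bulk RNA fewer cells of a type and less RNA per cell cannot be told apart.

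**Figure D1:**
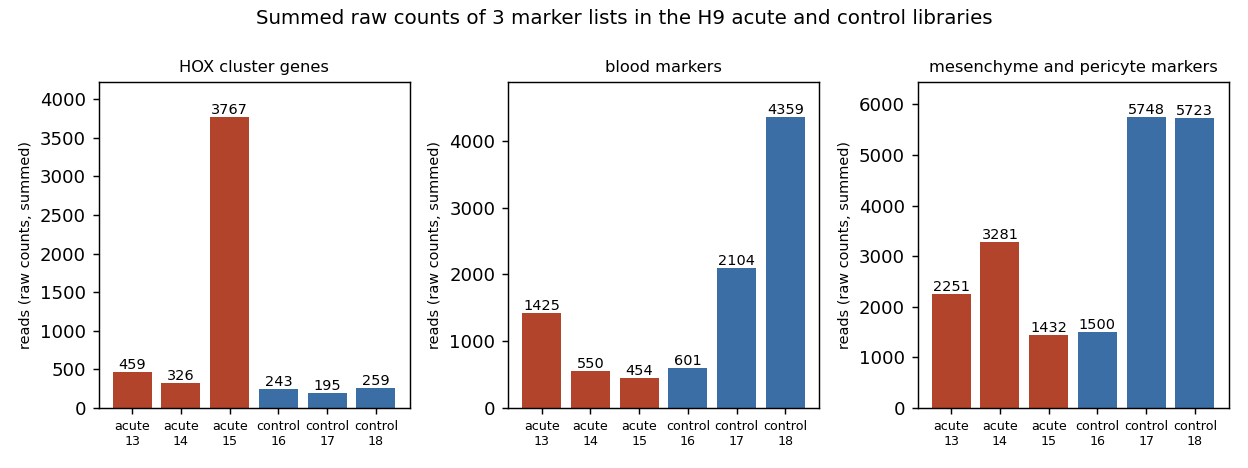
Summed raw counts (reads, y axis from 0) of 3 marker lists in each H9 library, acute on the left in red and control on the right in blue. HOX counts peak at 3767 in acute library 15, and mesenchyme and pericyte counts at 5748 and 5723 in control libraries 17 and 18.

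No gene separated the acute from the control libraries after correction. Of 17173 genes tested with the edgeR quasi-likelihood test, 0 passed a Benjamini-Hochberg adjusted p of 0.05, which is 0.0% of those tested. At an unadjusted p under 0.05, 166 genes were higher after dopamine (0.967% of those tested) and 227 were lower (1.32%). DESeq2 called 2 genes, EBF3 and NEUROD2, both higher. Without a filter on low counts the edgeR test called 117 genes, 61 higher and 56 lower. In that fit the prior degrees of freedom, which draw each gene's spread to the common one, were 98.79, against 7.72 in the main fit. The calls included 22 of the 23 leading genes described below. Those genes were chosen by p on the same counts, so this overlap adds no independent evidence. Genes whose 3 acute libraries all lay above the 3 controls numbered 777 (4.52%), and genes whose acute libraries all lay below numbered 898 (5.23%). Over all genes tested 49.1% had a positive log2 fold change, the share to set beside the counts of positive genes in the lists below. On simulated counts of the same depth and group size the test recovered 23.9% of the 1.5-fold changes put in, 70.1% of the 2-fold changes and 98.5% of the 4-fold changes. Changes were put only into genes at 1 CPM or more, and each gene varied independently between libraries. Sets of genes high in single libraries, as above, were not simulated, so these shares do not describe them. In the real libraries PAX5 and TFPI2, with log2 differences of 2.23 and -2.96, had an adjusted p of 0.127 in the edgeR test.

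The genes with the smallest p-values on the higher side are described here as the 12 leading higher genes, chosen by p in this same comparison, with log2 fold changes of 0.99 to 4.79 and adjusted p of 0.127 to 0.494 in the edgeR test. PAX5, a paired-box regulator of the midbrain-hindbrain boundary and of B cells, led the list (chromosome 9, 36833269 to 37034268, minus strand, GRCh38). It had 10.6, 7.55 and 10.8 CPM in acute libraries, against 3.16, 1.27 and 1.70 CPM in control libraries. The groups did not overlap, and the log2 difference was 2.23 ± 0.39 (SE, adjusted p = 0.127). PAX5 was also the leading gene in which acute library 13 stood furthest above its blood-carrying controls, by 2.48 on the log2 scale, against 1.40 in libraries 14 and 15 against 16.

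EBF3, a helix-loop-helix factor of maturing neurons (chromosome 10, 129835233 to 129973053, minus strand), had 21.9, 106 and 60.1 CPM in acute libraries and 13.6, 18.0 and 17.8 CPM in control libraries. The acute mean of 62.7 ± 42.2 CPM, against 16.5 ± 2.51 CPM in controls (SD, n = 3 each), thus rested mainly on libraries 14 and 15, with library 13 only just above the controls. The log2 difference was 1.93 ± 0.35 (SE, adjusted p = 0.127), and 0.28 in library 13 against 17 and 18. Its relative EBF2 showed the same order, at 3.45, 16.5 and 6.57 CPM in acute libraries and 1.28, 3.49 and 2.18 CPM in controls. Library 13 lay inside the control range for EBF2. EBF1 had 6.14, 16.3 and 17.2 CPM in acute libraries and 4.02, 4.38 and 5.75 CPM in controls, without overlap. EBF4, a more distant relative, had 36.1, 31.4 and 29.1 CPM in acute libraries and 33.2, 30.5 and 34.8 CPM in controls, with a log2 difference of -0.03 that lay on either side of 0 across settings.

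PAX2, which patterns the midbrain-hindbrain region, kidney and optic stalk, had 0.759, 3.85 and 9.67 CPM in acute libraries and 0.304, 0.318 and 0.426 CPM in controls. PAX7, a marker of dorsal neural tube and muscle progenitors, had 0.759, 9.05 and 3.16 CPM against 0.243, 0.381 and 1.38 CPM. GBX2, a hindbrain-side factor of the midbrain-hindbrain boundary, had 0.965, 3.43 and 2.34 CPM against 0.852, 0.508 and 0.266 CPM. In all 3 genes library 13 was the lowest acute library, and for PAX7 it lay below control library 18. POU4F1, a factor of sensory and midbrain neurons, had 2.14, 9.94 and 5.62 CPM in acute libraries and 1.03, 2.16 and 1.49 CPM in controls. TFAP2B, a neural crest and interneuron factor, had 0.138, 22.9 and 5.94 CPM in acute libraries and 0, 0.127 and 0.852 CPM in controls. For TFAP2B the acute library 13 sat at the control level, and library 14 alone held most of the signal.

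The other leading higher genes were smaller in change or carried by another library. GLI3, a repressor of the hedgehog pathway, had 4.14, 11.9 and 6.63 CPM in acute libraries and 3.16, 3.56 and 3.57 CPM in controls, and PRDM8, a neuronal transcriptional repressor, had 7.03, 11.6 and 8.65 CPM against 6.02, 4.32 and 3.57 CPM. Neither gene overlapped between groups, and their log2 differences were 1.16 ± 0.29 and 0.99 ± 0.24 (SE). TBC1D3K had 2.55, 2.81 and 2.40 CPM in acute libraries and 0.487, 0.762 and 1.38 CPM in controls, but it belongs to a family of near-identical copies among which the counting could split reads, so its value is uncertain. HOXC10 had 2.28, 0.416 and 19.9 CPM in acute libraries and 0.122, 0.191 and 0.746 CPM in controls, and was highest in library 15.

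Across the 12 leading higher genes, the highest library was 14 for 9 genes and 15 for 3, and library 13 was the lowest acute library for 9. Of the 12, 7 did not overlap between groups. Control library 16 lay below every acute library in all 12. Within the blood split, the acute-minus-control difference was positive for 10 of 12 genes in library 13 against 17 and 18 (median 0.40 on the log2 scale) and for 12 of 12 in libraries 14 and 15 against 16 (median 2.50). Without library 13 the edgeR test called 11 genes, all higher, among them EBF2, EBF3, GLI3, PAX7, POU4F1, TFAP2A and TFAP2B, and without library 14 it called 4, all of them HOX genes. Without library 15 it called 0.

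**Figure D2:**
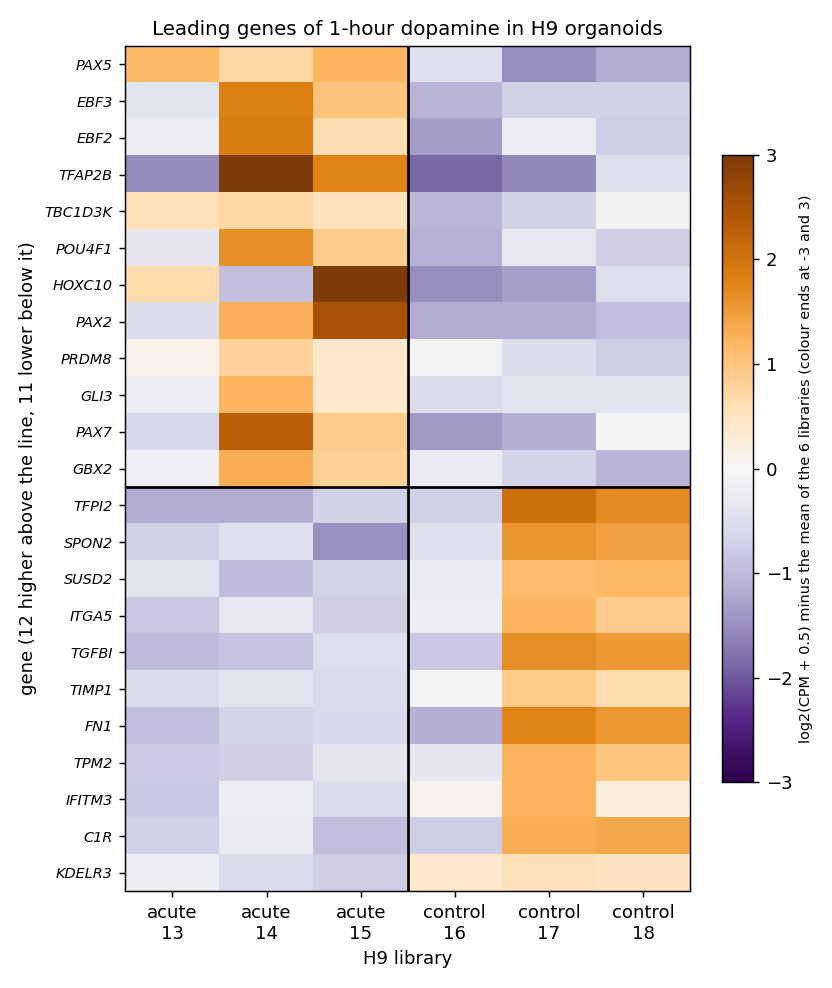
Deviation of log2(CPM + 0.5) from the mean of the 6 libraries (colour) for the 12 leading higher genes (above the line) and the 11 leading lower genes (below it), with acute libraries left of control libraries. Each higher gene has its highest value in acute library 14 or 15, and each lower gene in control library 17 or 18.

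The wider set of EBF, PAX and posterior identity genes leaned the same way as those leaders. The set includes the leaders EBF2, EBF3, PAX2, PAX5, PAX7 and GBX2, so part of its lean follows from how they were chosen. Of its 30 genes 24 were tested, 19 had a positive log2 fold change, 11 had an unadjusted p under 0.05 on the higher side (0.967% of all genes tested) and 6 did not overlap (4.52% of all genes tested were higher without overlap). The list's median was 0.40, beside -0.00 over all genes tested, but the list was chosen with these values known. Its median deviation was -0.28, 0.65 and 0.16 in acute libraries 13, 14 and 15, against -0.09, -0.36 and -0.27 in control libraries, so that acute library 13 stood with the controls. EN2, a midbrain-hindbrain factor, had 7.79, 22.6 and 6.63 CPM in acute libraries and 9.25, 2.22 and 5.59 CPM in controls, and PAX3, a dorsal neural tube and neural crest factor, had 0.483, 17.6 and 4.11 CPM against 0, 0.0635 and 2.93 CPM. Both overlapped between groups and were highest in library 14.

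HOX genes were a separate pattern of library 15, and this list was added after its values were seen. In that library 32 of the 39 HOX genes had at least 10 counts, against 14 and 6 in acute libraries 13 and 14 and 4 to 5 in the controls. HOXB9 had 1.72, 0.416 and 35.6 CPM in acute libraries and 0.122, 0.254 and 0.213 CPM in controls. HOXB8 had 0.690, 0.260 and 24.8 CPM against 0, 0.0635 and 0.0533 CPM. The acute libraries lay above the controls for both, yet nearly all reads came from 1 library. Acute library 13 had intermediate values for some of these genes, such as HOXA10 at 3.79, 0.156 and 16.5 CPM in acute libraries and 0, 0.191 and 0 CPM in controls.

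On the lower side the 11 leading genes, again chosen by p in this comparison, had log2 fold changes of -2.96 to -1.09 and adjusted p of 0.127 to 0.567 in the edgeR test. TFPI2, a matrix-bound serine protease inhibitor (chromosome 7, 93885396 to 93890753), had 0.690, 0.677 and 1.14 CPM in acute libraries and 1.10, 10.4 and 8.04 CPM in control libraries. Control library 16 was thus inside the acute range, and the log2 difference of -2.96 ± 0.54 (SE, adjusted p = 0.127) rested on controls 17 and 18. Inside the blood split it was -3.03 for library 13 against 17 and 18 and -0.18 for libraries 14 and 15 against 16.

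FN1, fibronectin (chromosome 2, 215360440 to 215436073), had 19.9, 24.3 and 25.6 CPM in acute libraries and 17.3, 136 and 116 CPM in controls. TGFBI, a matrix protein induced by transforming growth factor beta, had 3.45, 3.80 and 5.18 CPM against 3.95, 24.3 and 22.2 CPM. For these genes control library 16 sat with the acute libraries, below them for FN1 and among them for TGFBI. SPON2, a secreted matrix protein, had 0.759, 1.04 and 0.253 CPM against 1.03, 5.65 and 5.22 CPM, and C1R, a complement protease, had 0.828, 1.35 and 0.632 CPM against 0.791, 4.83 and 5.11 CPM. Each of these overlapped between groups through control library 16.

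In the other 6 leading lower genes the groups did not overlap. ITGA5, the fibronectin receptor subunit, had 3.38, 5.20 and 3.73 CPM in acute libraries and 5.60, 15.7 and 12.7 CPM in controls. TIMP1, a metalloproteinase inhibitor, had 12.6, 13.8 and 12.3 CPM against 17.3, 35.6 and 29.6 CPM, and TPM2, a tropomyosin, had 2.69, 2.76 and 3.73 CPM against 3.83, 12.4 and 10.3 CPM. Library 16 remained the lowest control in all 3. KDELR3, a receptor that returns proteins to the endoplasmic reticulum, had 1.72, 1.20 and 1.01 CPM in acute libraries and 2.80, 3.24 and 2.98 CPM in controls. It was the leading lower gene with the most even controls (3.01 ± 0.221 CPM, against 1.31 ± 0.370 CPM after dopamine, SD, n = 3 each) and was also lower in both parts of the blood split, by -0.70 and -1.04. SUSD2, a membrane glycoprotein gene, had 1.10, 0.572 and 0.821 CPM in acute libraries and 1.28, 4.13 and 4.26 CPM in controls.

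Control libraries 17 and 18 both lay above all 3 acute libraries and above control 16 in 11 of these 11 genes, a pattern found in 1071 of the 17173 genes tested and in 151 of the 227 lower genes at an unadjusted p under 0.05. Within the blood split all 11 differences were negative for library 13 against 17 and 18 (median -1.92), and 8 of 11 for libraries 14 and 15 against 16 (median -0.30). Without control library 16 the edgeR test called 31 genes, 30 of them lower. Without both 17 and 18 it called 1 gene, lower after dopamine, but that fit has 1 control library, 16, which is assumed to vary like the other groups, so the count says little about the lower genes.

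**Figure D3:**
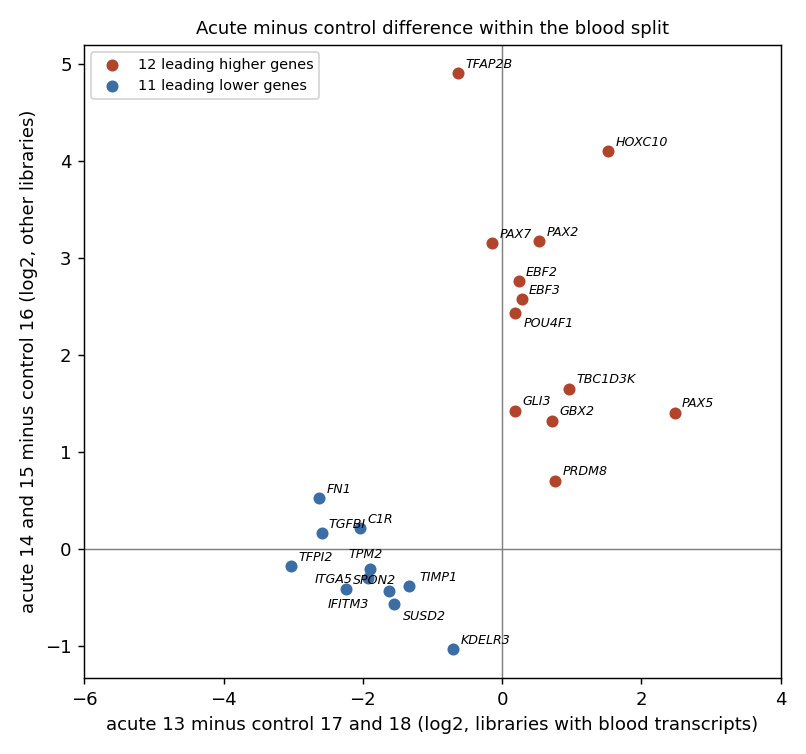
Log2 difference in CPM between acute library 13 and controls 17 and 18 (x axis) and between acute libraries 14 and 15 and control 16 (y axis) for the 23 leading genes. The lower genes spread along the x axis, with a median of -1.92 there and -0.30 on the y axis, and the higher genes along the y axis, with a median of 2.50 there and 0.40 on the x axis.

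Matrix and mesenchymal lists as a whole showed the same dependence on libraries. Of 45 matrix and TGF-beta genes tested, 3 had a positive log2 fold change and 15 had an unadjusted p under 0.05 on the lower side (1.32% of all genes tested), with a median of -0.36. That median was -0.60 in library 13 against 17 and 18 and -0.03 in libraries 14 and 15 against 16. The matrix list includes leading lower genes, so part of its lean follows from how they were chosen. COL1A1, the main fibrillar collagen chain, had 52.8, 17.4 and 3.85 CPM in acute libraries and 1.03, 154 and 128 CPM in controls. Its lowest library was a control and its 2 highest were controls, so the pooled log2 difference of -1.94 ± 0.85 (SE) stood against 2.86 in libraries 14 and 15 against 16. COL6A3, a beaded-filament collagen chain, had 1.93, 4.94 and 2.27 CPM in acute libraries and 0.669, 20.4 and 16.2 CPM in controls. CAV1, the caveolar coat protein of endothelium and fibroblasts, had 2.07, 1.98 and 1.90 CPM against 2.01, 6.92 and 6.13 CPM. Of the 9 caveolin and endothelial genes tested, 7 had a negative log2 fold change and 4 had an unadjusted p under 0.05 on the lower side. PECAM1, an endothelial and leukocyte adhesion gene, had 0.621, 0.104 and 0.253 CPM in acute libraries and 0.122, 1.97 and 2.24 CPM in controls. ENG, a TGF-beta co-receptor of endothelium, had 0.759, 0.572 and 0.505 CPM against 0.974, 2.79 and 2.98 CPM. Both were highest in controls 17 and 18, while the endothelial marker CDH5 had at most 0.207 CPM in any of the 6 libraries.

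Interferon-responsive and antigen presentation genes were lower on balance after dopamine. Of 41 tested, 35 had a negative log2 fold change, 12 did not overlap on the lower side and 7 had an unadjusted p under 0.05 on that side. Over all genes tested, 5.23% did not overlap on the lower side and 1.32% had such a p. The list includes the leading lower gene IFITM3, so part of its lean follows from how that gene was chosen. The median was -0.29, and -0.30 and -0.08 in the parts of the blood split with and without blood transcripts. Interferon drives many of these genes through a promoter element read by STAT and IRF proteins, in which GAAA is repeated at a fixed distance. The element, read as GAAA, any 2 bases and GAAA and searched on both strands in the 250 bases before each gene's RefSeq start (GRCh38.p14), stood in 19 of 32 promoters of the list (59.4%) and in 1061 of all 35116 (3.02%). The windows below show it in capitals for 3 members with lower means after dopamine, with 2 matches in each, which overlap in B2M and BST2, each read along the gene's own strand, at chr11:320861-320925 (minus strand), chr15:44711349-44711418 (plus strand) and chr19:17405715-17405784 (minus strand). A match is a description of letters, not of a bound site.
IFITM3: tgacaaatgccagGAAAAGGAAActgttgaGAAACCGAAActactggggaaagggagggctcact
B2M: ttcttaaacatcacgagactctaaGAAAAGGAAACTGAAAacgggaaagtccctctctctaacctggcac
BST2: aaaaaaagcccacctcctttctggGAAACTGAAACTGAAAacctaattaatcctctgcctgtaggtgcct

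IFITM3, which blocks virus entry at membranes (chromosome 11, 319676 to 329475), had 1.66, 2.86 and 2.08 CPM in acute libraries and 3.53, 8.32 and 3.94 CPM in controls. The groups did not overlap, and the log2 difference was -1.24 ± 0.31 (SE, adjusted p = 0.495 in the edgeR test). B2M, the light chain of class I antigen presentation (chromosome 15, 44711358 to 44718851), had 49.1, 51.4 and 53.1 CPM in acute libraries and 66.9, 84.5 and 76.0 CPM in controls. Its acute libraries lay close together, and the log2 difference was -0.57 ± 0.15 (SE, adjusted p = 0.567 in the edgeR test), with -0.70 and -0.35 inside the blood split. BST2, the tether of budding virus, had 0.345, 0.208 and 0.948 CPM in acute libraries and 0.669, 3.24 and 1.28 CPM in controls, with overlap. IFIT2, which binds foreign RNA, had 6.34, 7.18 and 4.99 CPM against 9.61, 11.6 and 7.72 CPM, and its neighbour IFIT1 had 7.59, 8.53 and 7.71 CPM against 11.7, 13.1 and 9.32 CPM. Neither overlapped, and IFIT2 was lower by -0.57 and -0.62 in the parts of the split. Class I heavy chains followed in the same direction without overlap, with HLA-E at 22.1, 26.3 and 23.1 CPM against 27.9, 34.1 and 32.3 CPM and HLA-B at 44.1, 41.2 and 37.2 CPM against 52.3, 53.0 and 51.9 CPM. HLA genes share reads with each other, so their split is uncertain.

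Immediate early genes, the usual hour-scale readout of receptor and synaptic activity, leaned lower after dopamine and none passed. Of 37 tested, 7 had a positive log2 fold change, 0 had an unadjusted p under 0.05 on the higher side and 3 on the lower (1.32% of all genes tested), and 6 did not overlap, all lower after dopamine (5.23% of all genes tested). The list's median was -0.15, with -0.17 and -0.13 inside the blood split. FOS, the founding member (chromosome 14, 75278826 to 75282230), had 14.8, 11.4 and 13.7 CPM in acute libraries and 17, 17 and 21.8 CPM in controls. The groups did not overlap, and the log2 difference was -0.49 ± 0.18 (SE, unadjusted p = 0.0157, adjusted p = 1.0 in the edgeR test). NR4A1, an activity-induced nuclear receptor, had 10.8, 8.95 and 11 CPM against 12.8, 10.1 and 14.4 CPM, and EGR1, a zinc-finger factor, had 2.62, 4.32 and 2.15 CPM against 3.16, 3.30 and 4.53 CPM. Both overlapped. JUNB had 4.41, 3.23 and 3.79 CPM in acute libraries and 5.29, 4.38 and 6.87 CPM in controls, and JUND, a partner of FOS in AP-1, had 77.4, 72.6 and 69.3 CPM against 107, 84.9 and 90.7 CPM. FOSL1 had 2, 5 and 0 counts in acute libraries and 7, 11 and 13 counts in controls, too few for a firm statement.

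The cyclic AMP response element TGACGTCA stood in the promoters of 4 of 28 immediate early genes matched (14.3%), against 1.65% of all promoters of the same length. The search found no match before FOS or JUNB. JUND had one in the window at chr19:18281785-18281852 (minus strand, GRCh38.p14, RefSeq), in capitals here.
JUND: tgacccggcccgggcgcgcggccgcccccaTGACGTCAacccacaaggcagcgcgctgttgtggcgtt

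Later CREB targets showed no common direction, with 11 of 27 positive and a median of -0.04. PER1, a clock gene with CREB sites known in mammals, had 35.0, 35.8 and 33.9 CPM in acute libraries and 44.4, 36.8 and 39.0 CPM in controls. PDYN, the dynorphin precursor that D1 receptors raise in the striatum, had 57.8, 42.3 and 44 CPM against 70.1, 70.4 and 72.3 CPM. Its controls were tight and all above the acute libraries, with a log2 difference of -0.56 ± 0.18 (SE, unadjusted p = 0.00539, adjusted p = 1.0 in the edgeR test). The difference was negative in both parts of the blood split, -0.30 and -0.69. The search for TGACGTCA found no match in the 250 bases before PER1 or PDYN.

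**Figure D4:**
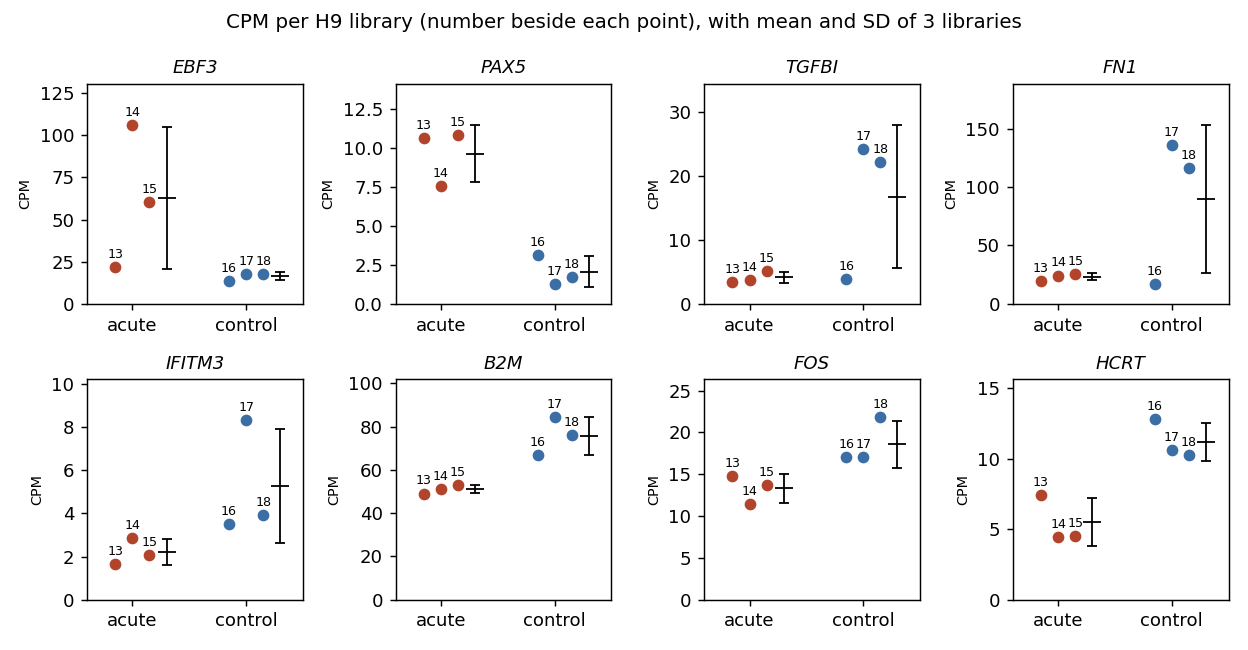
CPM of 8 genes in each H9 library (points with the library number), acute in red left of control in blue, with the mean and SD of 3 libraries in black. EBF3 is carried by acute libraries 14 and 15, TGFBI and FN1 by control libraries 17 and 18, while B2M, FOS and HCRT separate the groups in all 6 libraries.

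The receptors that dopamine acts on were expressed at levels that did not differ detectably between groups. DRD2, the main D2-like receptor, had 23.9, 19.1 and 20.5 CPM in acute libraries and 24.1, 17.8 and 25.0 CPM in controls, a log2 difference of -0.08 ± 0.23 (SE). DRD1 had 2.97, 3.38 and 4.23 CPM against 3.53, 3.05 and 4.53 CPM, and DRD5, the other D1-like receptor, had 4.28, 3.17 and 4.11 CPM against 3.16, 3.87 and 4.90 CPM. All 3 receptors overlapped between groups. Among 21 receptor, coupling and striatal genes tested, 7 had a positive log2 fold change and the median was -0.07. On the lower side 4 did not overlap (5.23% of all genes tested) and 2 had an unadjusted p under 0.05 in the edgeR test (1.32% of all). On the higher side both counts were 0. GPR6, an orphan receptor of D2-type striatal neurons, was lower in every acute library, at 0.276, 0.781 and 0.695 CPM, against 1.34, 1.02 and 1.65 CPM in controls. PPP1R1B, the DARPP-32 integrator of dopamine signals, had 0.621, 1.14 and 2.40 CPM against 0.548, 1.14 and 0.533 CPM.

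Genes for making and clearing dopamine leaned slightly lower after dopamine, and none passed. TH, the rate-limiting enzyme of synthesis, had 16, 15.3 and 13.5 CPM in acute libraries and 18.9, 13.4 and 17 CPM in controls, with a log2 difference of -0.14 ± 0.22 (SE). Of 17 genes of this list tested, 4 had a positive log2 fold change, with a median of -0.14. The list's median was -0.04 in library 13 against 17 and 18 and -0.29 in libraries 14 and 15 against 16. Of 6 adrenergic receptors tested, which dopamine can also reach, 1 had a positive log2 fold change and 0 had an unadjusted p under 0.05 in the edgeR test.

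The NRF2 programme likewise held no gene that passed, and most of its values were lower after dopamine. Of 38 antioxidant genes tested, 10 had a positive log2 fold change, 8 did not overlap on the lower side (5.23% of all genes tested) and 1 on the higher (4.52% of all), and the median was -0.12, with -0.15 and -0.14 inside the blood split. NQO1, a quinone reductase that is a standard NRF2 target, had 9.86, 10.8 and 13.8 CPM in acute libraries and 14.1, 15.5 and 17.3 CPM in controls. The acute libraries all lay below the controls, with a log2 difference of -0.45 ± 0.17 (SE, unadjusted p = 0.0177, adjusted p = 1.0 in the edgeR test). HMOX1, haem oxygenase, had 7.93, 9.26 and 8.02 CPM against 11.2, 9.72 and 9.75 CPM, also without overlap and with a smaller difference of -0.28 ± 0.23 (SE). TXNIP, an inhibitor of thioredoxin, had 389, 447 and 302 CPM against 394, 471 and 248 CPM. CAT, catalase, had 3, 1 and 0 counts in acute libraries and 0, 13 and 20 counts in controls, with most reads in 17 and 18. The antioxidant element TGACNNNGC stood in 6 of 30 promoters of the list (20.0%) and in 10.9% of all, with no match before NQO1 or CAT. Heat shock and unfolded protein genes had 5 of 29 positive values, a median of -0.10 and 0 genes at an unadjusted p under 0.05 in either direction in the edgeR test.

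Several large housekeeping lists leaned the same small way. Of 85 cytosolic ribosomal protein genes 1 had a positive log2 fold change, with a median of -0.13, and of 71 respiratory chain genes 5 did, with a median of -0.12. Ribosomal proteins did not overlap on the lower side for 21 of 85 genes (5.23% of all genes tested), yet 0 had an unadjusted p under 0.05 in the edgeR test. Hypoxia and glycolysis genes had 4 of 32 positive and a median of -0.10, which was 0.09 in library 13 against 17 and 18 and -0.32 in libraries 14 and 15 against 16. The signs of the ribosomal and respiratory medians were the same with DESeq2 size factors and with upper-quartile scaling, as they were for the immediate early and NRF2 lists.

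Neuronal lists had medians of either sign. Of 20 pan-neuronal genes 11 were positive, with a median of 0.01, and of 27 GABAergic genes 9, with a median of -0.06. Of 30 ion channel genes 25 were positive, with a median of 0.10 and 0 genes at an unadjusted p under 0.05 in the edgeR test. The glutamatergic median was 0.16, with 0.07 in library 13 against 17 and 18 and 0.38 in libraries 14 and 15 against 16. Of the 16 glutamatergic genes 13 were positive. Among them NEUROD2, a neuronal differentiation factor, had 0.207, 2.08 and 1.96 CPM in acute libraries and 0.0608, 0.318 and 0.320 CPM in controls, again with library 13 among the controls.

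Among hypothalamic genes the smallest p belonged to a neuropeptide. HCRT, the orexin precursor (chromosome 17, 42184060 to 42185452), had 7.45, 4.48 and 4.55 CPM in acute libraries and 12.8, 10.6 and 10.3 CPM in controls. The means were 5.49 ± 1.70 CPM after dopamine and 11.2 ± 1.36 CPM in controls (SD, n = 3 each), without overlap. The log2 difference was -1.04 ± 0.31 (SE, adjusted p = 0.8 in the edgeR test), and it was negative in both parts of the blood split, -0.46 and -1.41. NPY, another neuropeptide, had 1, 3 and 4 counts in acute libraries and 8, 10 and 7 counts in controls. CARTPT, a peptide precursor regulated by psychostimulants in rodents, ran the other way at 6.90, 9.68 and 4.11 CPM in acute libraries and 4.62, 3.94 and 4.53 CPM in controls. Of 26 hypothalamic genes tested 11 were positive, with a median of -0.13. That median was 0.05 in library 13 against 17 and 18 and -0.10 in libraries 14 and 15 against 16. At an unadjusted p under 0.05 in the edgeR test, 3 were lower and 1 higher (1.32% and 0.967% of all genes tested). Without overlap 2 were lower and 3 higher (5.23% and 4.52% of all).

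**Figure D5:**
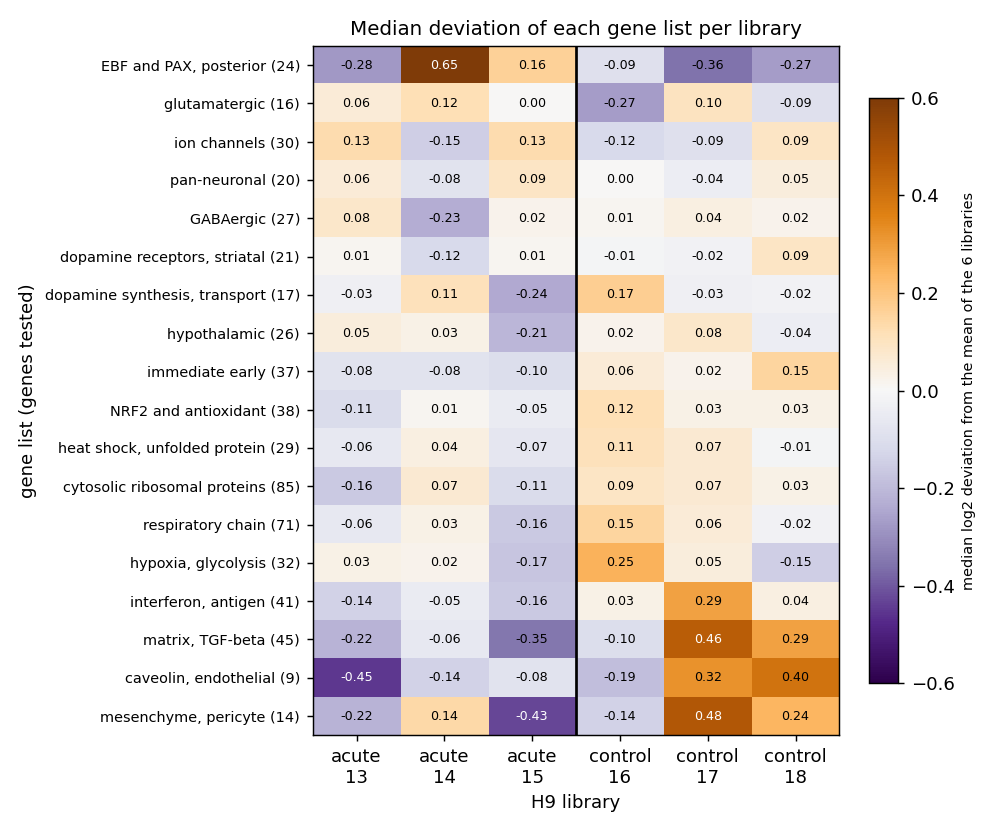
Median over the tested genes of each list (number in brackets) of the log2 deviation from the mean of the 6 libraries (colour and printed value), with acute libraries left of control libraries. The EBF and PAX list stands at 0.65 in acute library 14 and -0.28 in acute library 13, and the matrix list at 0.46 and 0.29 in control libraries 17 and 18 and -0.10 in control library 16.

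The authors' deposited table of acute dopamine holds 55 genes, 30 with a positive signed fold change and 25 with a negative one. In the authors' deposited table the log2 column carries the opposite sign to the signed fold change. With that sign turned, the authors' deposited table differed from the H9 log2 fold changes above by a median of 0.01 over the 39 genes tested in both, against 2.32 from those of H1. The values in the authors' deposited table thus match the H9 comparison numerically. Of these 39 genes 0 passed in the edgeR test here. The rest of the 55 did not pass its low-count filter and were not tested.

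Per library, the positive genes of the authors' deposited table divided by library. The 13 genes of the HOX clusters among them, the noncoding RNA HOTAIR included, were highest in acute library 15 in 13 of 13 cases. The other 17 were highest in library 14 for 12 genes, in 15 for 4 and in 13 for 1. A median of 78.0% of a gene's acute CPM, over all 30, lay in its highest library. The largest signed fold change of the authors' deposited table, 196.94 for HOXB6, stood on 0.552, 0.052 and 15.0 CPM in acute libraries and 0, 0 and 0.0533 CPM in controls. Of the 30 genes, 16 did not overlap between groups.

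Among the 25 negative genes of the authors' deposited table, controls 17 and 18 lay above every acute library in 25 and above control 16 in 23. Control 16 lay within or below the acute range in 16 of them, and 9 did not overlap. They include muscle and blood-lineage transcripts that were not tested or low here. CKM, muscle creatine kinase, had 0.345, 0.052 and 0 CPM in acute libraries and 0, 3.11 and 2.61 CPM in controls, and FCN1, a monocyte lectin, had 0.276, 0 and 0 CPM against 0.0608, 3.68 and 1.44 CPM. HCRT, also listed in the authors' deposited table, was highest in control 16.

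The H9 chronic libraries were set against these same controls, so their values stand beside the acute ones without a test of likeness. FN1 had 28, 8.28 and 15.8 CPM in chronic libraries, and IFITM3 had 1.51, 1.24 and 1.47 CPM. Their chronic log2 differences were -2.36 ± 0.47 and -1.89 ± 0.33 (SE, adjusted p = 0.0214 and 0.0125 in the edgeR test). For FN1, control library 16 at 17.3 CPM lay inside the chronic range. The FN1 difference thus rested on controls 17 and 18, at 136 and 116 CPM. For IFITM3 the controls, at 3.53, 8.32 and 3.94 CPM, all lay above the chronic libraries. Summed blood-gene counts were 1, 3 and 3 in chronic libraries, against 6, 876 and 2674 in controls 16, 17 and 18. What part this had in the chronic differences was not tested. EBF3 had 10.5, 8.55 and 7.30 CPM and PAX5 0.525, 0.345 and 0.871 CPM in chronic libraries, below the controls and not above them. FOS at 14.0, 21.0 and 22.0 CPM, PDYN at 96.6, 73.7 and 65.3 CPM, NQO1 at 18.6, 18.7 and 16.7 CPM and HCRT at 16.5, 22.2 and 18.2 CPM lay within or above the control range in most chronic libraries. For these genes the acute libraries were the low ones of the H9 set, except 1 chronic library of FOS.

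In H1 organoids the acute contrast rests on libraries 4 to 6 against 7 to 9, of which library 9 held only 43284 counts. The 5 blood genes summed to 478, 0 and 0 counts in H1 acute libraries and 0, 131 and 1 in H1 controls. The blood marker list had a median log2 fold change of 1.02 in H1 and -2.37 in H9. What part this had in the differences between lines was not tested beyond the fits described below. Of the 12 leading higher genes 6 had the same sign in H1, and of the 11 leading lower genes 3 did. A test of the difference between the lines (H9 effect minus H1 effect) called 0 of 17173 genes (0.0%) in the edgeR test, and 1 gene with DESeq2. Before adjustment, p was under 0.05 for 138 genes with the larger value in H9 (0.804%) and 500 with the smaller (2.91%). The smallest p belonged to SLITRK6, a synaptic adhesion gene, with a log2 fold change of 0.02 ± 0.26 in H9 and 3.31 ± 0.47 in H1 (SE), a difference of -3.28 ± 0.54 (SE, adjusted p = 0.121 in the edgeR test). RXRG, a retinoid receptor, differed by -1.96 ± 0.37 and WLS, the carrier that secretes Wnt proteins, by -1.71 ± 0.34 (SE). In both the H1 value was the larger one, 1.60 and 1.74 in H1 against -0.37 and 0.03 in H9. Interferon-responsive IFITM3 and IFIT2 ran in opposite directions in the lines, with log2 fold changes of -1.24 and -0.64 for H9 organoids and 0.78 and 0.96 for H1 organoids, and their differences of -2.02 ± 0.48 and -1.60 ± 0.34 (SE) did not pass the edgeR test either.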

How the data were processed

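Per the labels' protocols, sequencing was paired-end on poly(A) RNA, and the dUTP preparation kept the strand. Builds GRCh38 and hg38 appear in the submitters' processing notes. No aligner, counter or annotation is given in the sources used here. Raw counts for 53853 gene symbols, unnormalized per the file headers, were deposited by the authors, and TPM for the same genes, used here in an alternative only. The authors' deposited table of acute dopamine gives a log2 fold change, a signed fold change read as a score, and p-values, per the file headers, with tool and samples not stated.

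Counts were filtered with filterByExpr of edgeR 4.0.16 (17173 genes of 18 libraries in 6 groups), scaled by TMM and tested with its quasi-likelihood F test in R 4.3.3, with Benjamini-Hochberg adjustment and a threshold of 0.05. A standard error is the log2 fold change divided by the square root of F. Differences within the blood split are of log2 mean CPM with 0.5 added, and a library carries blood transcripts at 100 or more counts of the 5 blood genes. Depth was 14858983 to 19291741 counts, at which 3 counts are the floor for a detected gene, and such limits cover counting error only. Symbols turned into dates (28, with 0.439% of counts) were kept without a name. A few genes that these rules name, 1 of the 12 lower genes among them, are not reported here, and summaries of the leading lower genes cover the other 11. Positions are from GENCODE on GRCh38, matched by symbol.

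The libraries compared and the gene lists were chosen with earlier results of these data known. Named genes are the 12 higher and 12 lower of smallest p with a mean log2 CPM of at least 0, up to 4 genes of smallest p per list, the 3 of smallest p for the line difference, and FOS, NR4A1, EGR1, DRD1, DRD2, DRD5, TH, HMOX1, NQO1, TXNIP, IFITM3 and B2M always. NKX2-1, STMN2, EN2, PAX3, TFAP2A, EBF1, EBF4, CSF1R, CX3CR1, IFIT1, HLA-E, HLA-B, the HOX genes, CDH5, C1QA, P2RY12 and the genes named from the authors' table fall outside this rule and were picked with their values in view. The fit was first tested on simulated counts of 16983 genes, where 8 of 16783 unchanged genes were called. Alternatives were DESeq2 1.42.0 and its size factors, upper-quartile scaling, no filter, a filter of 1 CPM in 3 libraries, limma 3.58.1 on log2 TPM with 1 or 0.1 added, robust fitting, subsets of libraries, the blood split as a covariate, a threshold of 0.1, and each library left out. Fits without libraries 17 and 18 together and without single H1 libraries were added after the data were seen.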

Additional observations from a re-analysis of the deposited data

How the results depend on the processing

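For acute dopamine in H9, 0 genes passed in the main edgeR test and also with DESeq2 size factors, upper-quartile scaling, a filter of 1 CPM, the 6 or 9 H9 libraries alone, a robust fit, the blood split as covariate, TPM with 0.1 added, a threshold of 0.1 and without library 9. DESeq2 called 2 genes, both higher, and TPM with 1 added called 1, higher (PAX5). The libraries without blood transcripts gave 6, 4 higher and 2 lower, with 2 acute libraries against 1 control library, 16, that is assumed to vary like the other groups. Without a low-count filter 117 passed, 61 higher and 56 lower, of which 90 were among the genes of the main test. The prior degrees of freedom, which set how far each gene's spread is drawn to the common one, were 98.79 in that fit and 7.72 in the main one. Leaving out one library gave 0 to 31 genes, 0 to 11 higher and 0 to 30 lower, the extremes without library 13 (11 higher) and without library 16 (31, 30 lower), and leaving out 17 and 18 together gave 1, lower, again against library 16 alone. For the difference between lines the count of 0 became 1 with DESeq2, 1 without blood libraries, 1 in a robust fit, 95 without the filter and 1 without 17 and 18, and 0 to 4 with one library left out. The cause of these shifts was not tested further. No paired analysis was possible because the groups share no replicate numbers.

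Of 66 genes followed through 20 settings, 49 never changed sign. In the libraries without blood transcripts the log2 difference reversed to 0.18 for TGFBI, 0.53 for FN1, 0.34 for C1R, 2.11 for CAT, 3.35 for COL1A1 and 2.42 for COL6A3, and without 17 and 18 to 0.07, 0.43, 0.26, 3.47, 4.56 and 2.19 for the same genes. In the libraries without blood transcripts EGR1 was 0.04, DRD1 0.11, DRD5 0.20, TXNIP -0.08 and SLITRK6 -0.00. DRD5 was 0.05 with the blood covariate, 0.02 and 0.01 with TPM plus 0.1 and 1, and 0.28 without 17 and 18, where TXNIP was -0.06, PECAM1 1.31, AIF1 1.81 and CSF1R 1.81. EBF4 was 0.02 with TPM plus 0.1 and 0.02 with TPM plus 1. With one library left out EBF4 ran from -0.12 to 0.04, DRD1 from -0.22 to 0.10, DRD2 from -0.21 to 0.01, DRD5 from -0.19 to 0.13, TXNIP from -0.19 to 0.24, SLITRK6 from -0.16 to 0.11 and WLS from -0.13 to 0.17. Over 44 lists, 93 list medians moved by more than the spread between libraries and 787 did not. With 3 libraries a group, 23.9% of simulated 1.5-fold changes in genes at 1 CPM or more were recovered. Most changes of that size were thus missed in the simulation, where each gene varied independently between libraries. Sets of genes high in single libraries were not simulated, so this share gives no detection limit for them.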

Other observations

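A few further genes not described above, picked with their values in view, are given by library. ZIC1, a dorsal neural tube and cerebellar factor, had 50.5, 34.3 and 66.8 CPM in acute libraries and 13, 37.7 and 15.6 CPM in controls, with overlap through acute library 14 and control library 17. MAB21L1, an eye and dorsal midbrain gene, had 5.79, 51.9 and 16.4 CPM against 4.68, 7.18 and 8.26 CPM, and was highest in acute library 14. SULT1A3, a sulfotransferase that conjugates dopamine, had 4.55, 0.364 and 3.22 CPM in acute libraries and 0.243, 0.508 and 0.373 CPM in controls, so that acute library 14 sat with the controls. It has a near-identical copy in the genome, SULT1A4, and the counting could split reads between them. ADM, a hypoxia-induced peptide precursor, had 9.17, 10.2 and 7.01 CPM against 20.5, 16.2 and 9.48 CPM. Of 32 cell cycle genes 22 had a positive log2 fold change, with a median of 0.06, and 0 had an unadjusted p under 0.05 in the edgeR test.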
